A study of Saccharomyces cerevisiae with 4 samples.

Results

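The 26S proteasome subunit genes of budding yeast (Saccharomyces cerevisiae) were described as a set of 32 genes, among 5449 genes measured. They were taken by name, as the probe sets whose annotated gene symbol was one of the 14 subunits of the 20S core (PRE1 to PRE10, PUP1 to PUP3 and SCL1) or one of 18 subunits of the regulatory particle (RPT1 to RPT6 and 12 RPN genes). Each gene had 1 probe set, and 0 of the 32 were marked as shared with other transcripts. The cells were the wild-type strain W1588-4c, grown in YPD, a rich glucose medium, to log phase at an OD600 of 0.6 to 0.8. They were given 100 µM ebselen, an organic selenium compound that reacts with thiols, for 3 h (2 arrays), or DMSO, its solvent (2 arrays). The sample records give the exposure time for ebselen only, and they call the arrays of a group biological replicates. The comparison asked how expression differed during ebselen treatment.

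The 26S proteasome degrades proteins that carry ubiquitin chains. Its 20S core is a barrel of stacked rings, with outer rings of alpha subunits that gate the entrance and inner rings of beta subunits that hold the protease sites. A regulatory particle caps the barrel: its base contains a ring of ATPases that unfold the substrate, and its lid removes the ubiquitin chain. In yeast the transcription factor Rpn4 activates most of these genes together through a shared promoter element, and Rpn4 is itself a short-lived substrate of the proteasome. Because all subunits are needed in fixed ratios, the genes are known for moving as a group. No promoter or protein sequence was used here.

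Values are on a log scale taken as log2, relative to each probe set's median over the 4 arrays, so absolute levels are unknown and levels cannot be compared between genes. By this centring the 2 middle values of each gene mirror each other around 0. Changes are ebselen minus DMSO and carry the SE that limma gives after moderating variances over all genes (n = 2 in each group), and rose or fell refers to genes past a Benjamini-Hochberg adjusted p of 0.05 over all 5449 genes. In bulk RNA, fewer cells of a kind and less RNA per cell cannot be told apart.

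Of the 32 proteasome genes, 31 fell in the arrays labelled ebselen and 0 rose. Over all genes 38.8% were called lower and 33% higher, so a call as lower was common in this comparison. The median change of the 32 genes was -0.55, or 1.47-fold lower, against -0.03 over all genes fitted. Both ebselen arrays lay below both DMSO arrays for 31 of the 32, against 46.1% of all genes, and above both for 0, against 40.5%. The falls were moderate: 18 of the 32 were at least 0.5 on the log2 scale, against 21.6% of all genes, and 0 reached 2-fold, against 7.56% of all genes. The change ran from -0.98 for RPN5 to 0.04 for RPN2. That these genes were lower was already known from earlier results of the same data.

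**Figure D1:**
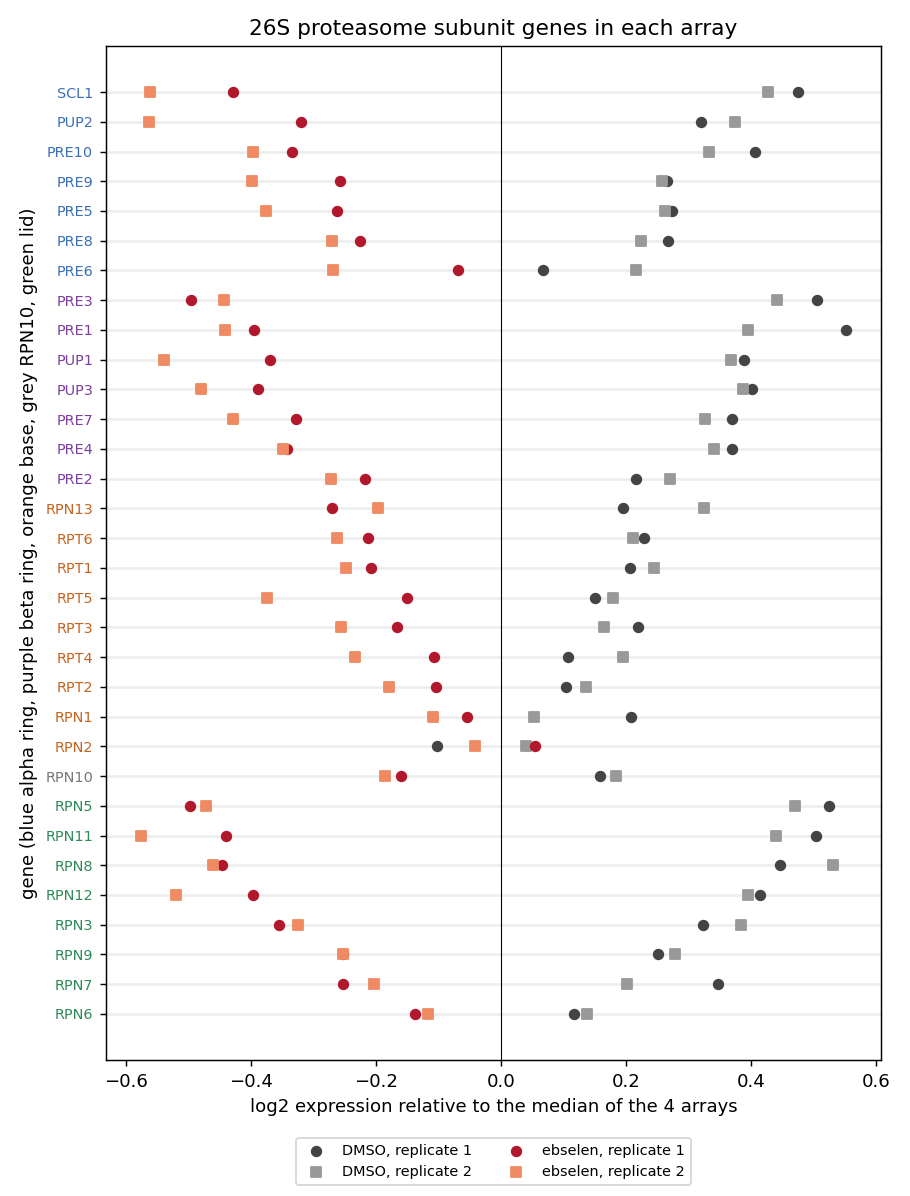
Log2 expression of each of the 32 proteasome genes relative to its median over the 4 arrays (x axis), with 1 row per gene grouped by place in the complex and 1 point per array. The ebselen points lie left of the DMSO points for 31 genes, and the 4 points of RPN2 overlap.

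Facts of the whole array set bear on these values. Gene by gene, the DMSO arrays differed from each other with an SD of 0.116 and the ebselen arrays with an SD of 0.143, while a DMSO and an ebselen array differed with an SD of 0.726 to 0.731. For 8 yeast control transcripts probed at both ends, the 5′ signal relative to the 3′ signal was lower in the ebselen arrays by a mean change of -0.75 ± 0.26 (SD over 8 transcripts), and all 8 moved this way. This end-to-end difference and the treatment lie between the same arrays and cannot be told apart. Scaling the arrays on 27 hybridization control probe sets shifted the median change of all genes from -0.03 to -0.50, so a change here is one relative to other genes of the array. Those control probe sets themselves changed by -0.05 to 0.67. In the limma fit after this scaling the adjusted p followed the size of the change alone, whatever the spread of a gene's replicates. Calls under this scaling therefore describe the size of the change and carry no replicate information on single genes. Fission yeast (Schizosaccharomyces pombe), whose RNA was not the sample, also has probe sets on this array, which serve as a background. The changes of 1746 of them had a median of 0.07 and a 1st percentile of -0.34, and 25 of the 32 proteasome genes lay below that percentile. Falls past this cutoff were common in S. cerevisiae: RPN10, just above it at -0.34, stood at percentile 29.3 of all genes fitted.

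In the alpha ring of the 20S core 7 of 7 genes fell, against 38.8% of all genes, with a median change of -0.59. SCL1 encodes the alpha1 subunit. Its values were 0.48 and 0.43 in the DMSO arrays and -0.43 and -0.56 in the ebselen arrays. The groups did not overlap, and SCL1 fell 1.93-fold (-0.95 ± 0.066 SE, n = 2, limma adjusted p = 0.000182). PUP2 (alpha5) gave 0.32 and 0.37 in DMSO and -0.32 and -0.56 in ebselen, a change of -0.79 ± 0.092. The spread between its ebselen arrays (SD 0.17) was the widest of any of the 32 genes in either group. PRE10 (alpha7) had a similar change of -0.73 ± 0.058.

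The other alpha genes fell less. PRE9 (alpha3), the only core subunit gene that yeast can live without, changed by -0.59 ± 0.066, and PRE5 (alpha6) by -0.59 ± 0.061. PRE8 (alpha2) changed by -0.49 ± 0.053. PRE6 (alpha4) was the core gene with the smallest fall. Its values were 0.07 and 0.22 in the DMSO arrays and -0.07 and -0.27 in the ebselen arrays. The replicate 1 values were the 2 middle ones, which the centring places at equal distance from 0. The change was -0.31 ± 0.092 (limma adjusted p = 0.0290). PRE6 lost its call in 7 of 15 alternative settings. Among them were the replicate number as a block (limma adjusted p = 0.0767) and the coding length trend removed (-0.14, limma adjusted p = 0.227). Others were the methods' t-test (adjusted p after Benjamini-Hochberg 0.1735) and a limma fit with all probe sets (adjusted p = 0.0801). The change was -0.24 without DMSO replicate 2 and -0.21 without ebselen replicate 2.

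In the beta ring 7 of 7 genes fell, against 38.8% of all genes, with a median change of -0.83. The beta ring holds the catalytic subunits, which differ in the residues after which they cut. PRE3 (beta1, the caspase-like site) gave 0.51 and 0.44 in DMSO and -0.50 and -0.44 in ebselen, and fell 1.92-fold (-0.94 ± 0.056 SE, n = 2, limma adjusted p = 0.000114). PUP1 (beta2, the trypsin-like site) gave 0.39 and 0.37 in DMSO and -0.37 and -0.54 in ebselen, a change of -0.83 ± 0.073. PRE2 (beta5, the chymotrypsin-like site) gave 0.22 and 0.27 in DMSO and -0.22 and -0.27 in ebselen, a change of -0.49 ± 0.055 (limma adjusted p = 0.000868). The groups were apart for each of the catalytic genes. PRE2 had the smallest fall of the beta ring, and its 95% interval (-0.63 to -0.35) did not overlap those of PRE3 (-1.08 to -0.80) or PUP1 (-1.02 to -0.65). The differences between these genes were not tested.

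The 4 beta subunits without a protease site fell within a narrow range, from -0.89 to -0.70, with a median of -0.78. PRE1 (beta4) gave 0.55 and 0.40 in DMSO and -0.40 and -0.44 in ebselen, a change of -0.89 ± 0.071. Its DMSO arrays had the widest spread of the 32 genes in that group (SD 0.11). PUP3 (beta3) changed by -0.83 ± 0.057, PRE7 (beta6) by -0.73 ± 0.060 and PRE4 (beta7) by -0.70 ± 0.050. The replicates of PRE4 were close to each other (SD 0.020 for DMSO, 0.0050 for ebselen).

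In the base of the regulatory particle 8 of 9 genes fell and 0 rose, against 38.8% and 33% of all genes. The median change was -0.40. A fall of at least 0.5 was reached by 0 of the 9, against 21.6% of all genes. The ring of 6 ATPases, which unfold substrates and open the core, moved within a narrow band from -0.46 to -0.26 (SD over the 6 genes 0.079, against 0.19 over the 14 core genes). RPT6 gave 0.23 and 0.21 in DMSO and -0.21 and -0.26 in ebselen, the largest fall of the ring (-0.46 ± 0.052, limma adjusted p = 0.000890). RPT2 gave 0.10 and 0.14 in DMSO and -0.10 and -0.18 in ebselen, the smallest (-0.26 ± 0.056, limma adjusted p = 0.00883). The groups did not overlap for either gene.

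The 4 ATPase genes between them were RPT1 (-0.45 ± 0.052), RPT5 (-0.43 ± 0.086), RPT3 (-0.40 ± 0.059) and RPT4 (-0.32 ± 0.069). The ATPases assemble as pairs, and the values of partners were -0.45 and -0.26 for RPT1 and RPT2, -0.46 and -0.40 for RPT6 and RPT3, and -0.32 and -0.43 for RPT4 and RPT5. The 95% intervals overlapped within each pair. In the methods' t-test RPT4 and RPT5 did not pass (adjusted p after Benjamini-Hochberg 0.0857 and 0.0976). Without DMSO replicate 2 neither RPT2 nor RPT4 passed in limma (adjusted p 0.0571 and 0.0504).

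With the deposited values the large scaffold subunits of the base had the smallest changes of all 32 genes. RPN2 gave -0.10 and 0.04 in the DMSO arrays and 0.06 and -0.04 in the ebselen arrays. The groups overlapped, the change was 0.04 ± 0.073 (limma adjusted p = 0.657) and its 95% interval ran from -0.15 to 0.22. The lower bound of that interval lay above the change of each of the other 31 genes. Its sign was negative in 5 of 15 alternative settings, and with scaling on the hybridization controls RPN2 was at -0.43. RPN1 gave 0.21 and 0.05 in DMSO and -0.05 and -0.11 in ebselen, a change of -0.21 ± 0.071 (limma adjusted p = 0.0420). RPN1 lost its call in 8 of 15 alternatives, among them the fits without DMSO replicate 1 (-0.13, limma adjusted p = 0.228), without ebselen replicate 1 (0.0625) and without ebselen replicate 2 (0.120). RPN1 and RPN2 were also the longest genes of the set, at 2982 and 2838 bases. With the coding length trend removed RPN1 was called lower at -0.42 (limma adjusted p = 0.00410). That was below the base and lid median of -0.38 in the same setting. RPN2 was at -0.15 there and was not called.

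The ubiquitin receptors fell as well. RPN13, which sits on Rpn2, gave 0.20 and 0.33 in DMSO and -0.27 and -0.20 in ebselen, a change of -0.49 ± 0.068. RPN10, which lies between base and lid, gave 0.16 and 0.18 in DMSO and -0.16 and -0.18 in ebselen, a change of -0.34 ± 0.051 (limma adjusted p = 0.00229). The groups were apart for both. RPN1, the third ubiquitin receptor, was described above.

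In the lid 8 of 8 genes fell, against 38.8% of all genes, with a median change of -0.78 and a range from -0.98 to -0.25. RPN11 encodes the enzyme that cuts the ubiquitin chain from the substrate, and RPN8 its inactive partner in a heterodimer. RPN11 gave 0.50 and 0.44 in DMSO and -0.44 and -0.58 in ebselen, and fell 1.97-fold (-0.98 ± 0.068 SE, n = 2, limma adjusted p = 0.000178). RPN8 gave 0.45 and 0.53 in DMSO and -0.45 and -0.46 in ebselen, a change of -0.94 ± 0.056. The partners therefore changed by amounts within 1 SE of each other. RPN5, a scaffold subunit, gave 0.53 and 0.47 in DMSO and -0.50 and -0.47 in ebselen, and had the largest fall of all 32 genes (1.98-fold, -0.98 ± 0.053, limma adjusted p = 8.81e-05). RPN12 changed by -0.86 ± 0.063 and RPN3 by -0.69 ± 0.054.

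The remaining lid scaffolds fell less. RPN9 changed by -0.52 ± 0.050 and RPN7 by -0.50 ± 0.069. RPN6, which clamps the lid onto the core, gave 0.12 and 0.14 in DMSO and -0.14 and -0.12 in ebselen, a change of -0.25 ± 0.050 (limma adjusted p = 0.00676). Its replicates were close (SD 0.015 in each group), so the groups were apart although the change was small, and the call was lost without DMSO replicate 2 (limma adjusted p = 0.0511). RPN5 and RPN6, of nearly the same coding length (1338 and 1305 bases), were at opposite ends of the lid, with 95% intervals of -1.12 to -0.85 and -0.38 to -0.13.

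**Figure D2:**
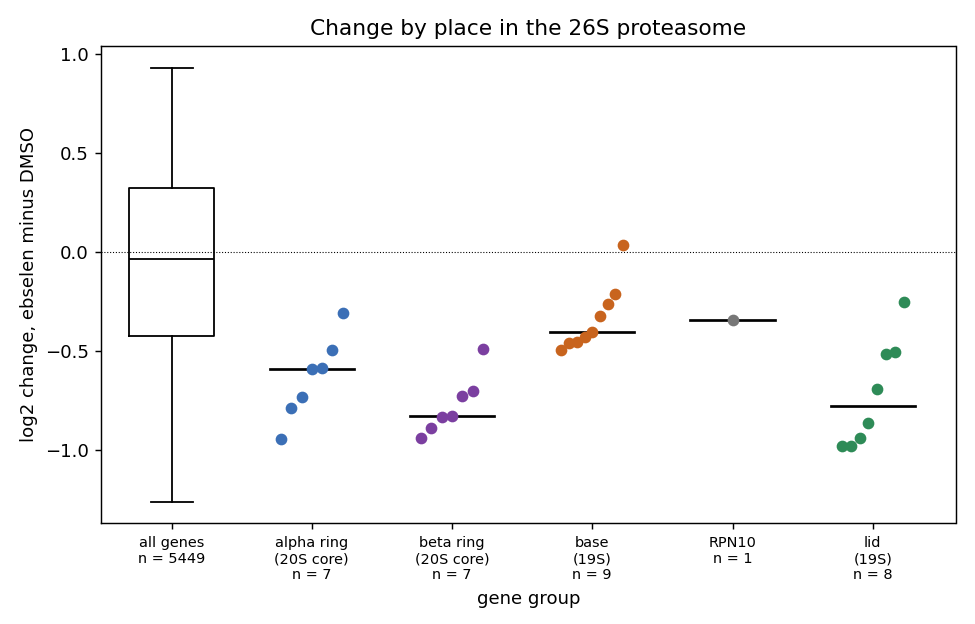
Log2 change, ebselen minus DMSO (y axis), of each proteasome gene by place in the complex, with black lines at the medians. The box shows the quartiles of all 5449 genes and its whiskers their 5th and 95th percentiles. The medians were -0.59 in the alpha ring, -0.83 in the beta ring, -0.40 in the base and -0.78 in the lid, against -0.03 over all genes.

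Core was set against base and lid as the grouping of the genes states. Of the core genes 14 of 14 fell, with a median change of -0.73. Of the base and lid genes 17 of 18 fell, with a median of -0.46, a difference of -0.28. Over all genes 38.8% fell. In the DMSO arrays the median level was 0.37 and 0.34 for the core and 0.21 and 0.21 for base and lid. In the ebselen arrays it was -0.33 and -0.41 for the core and -0.21 and -0.25 for base and lid. The core median lay farther from 0 than that of base and lid in each of the 4 arrays. Because each gene is centred on its own median, this largely restates the larger change of the core and is no separate evidence. A fall of at least 0.5 was reached by 11 of 14 core genes and 7 of 18 base and lid genes, against 21.6% of all genes. All 7 were lid genes. The regulatory particle was not uniform, since the lid median (-0.78) lay below that of the core and the base median (-0.40) above it. The members share their arrays and are not replicates, so no test was made.

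Coding length differed between these parts and moved with the change. Core genes ran from 597 to 867 bases (median 764.5), and base and lid genes from 471 to 2982 (median 1297.5), introns included. Over the 32 genes the change correlated with log2 coding length (Pearson r = 0.55, n = 32 genes of the same arrays, a description). Over all genes r was 0.14. The 774 genes within the length range of the core had a median change of -0.22, against 0.26 for the 536 genes at least as long as RPN2. Of the 774 genes 402 fell and 182 rose, and of the 536 genes 87 fell and 304 rose. With the trend of all genes removed, the medians were -0.56 for the core and -0.38 for base and lid, a difference of -0.18. The part of coding length and of the lower 5′ signal in the difference was not tested.

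Parts were also set side by side at similar length. The 6 ATPase genes ran from 1218 to 1404 bases with a median change of -0.41, and all 452 genes of that length had a median of -0.13. The lid genes in that range were RPN5 (-0.98), RPN7 (-0.50) and RPN6 (-0.25), with a median of -0.50 that lay close to the ATPases while the single genes lay on both sides of them. Among the base and lid genes, 3 were no longer than the longest core gene: RPN12 (-0.86), RPN13 (-0.49) and RPN10 (-0.34), with a median of -0.49 against -0.73 for the core. RPN12 of the lid thus lay among the core genes with the larger falls, RPN13 between the core genes PRE8 and PRE2, and RPN10 within the range of the ATPases.

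**Figure D3:**
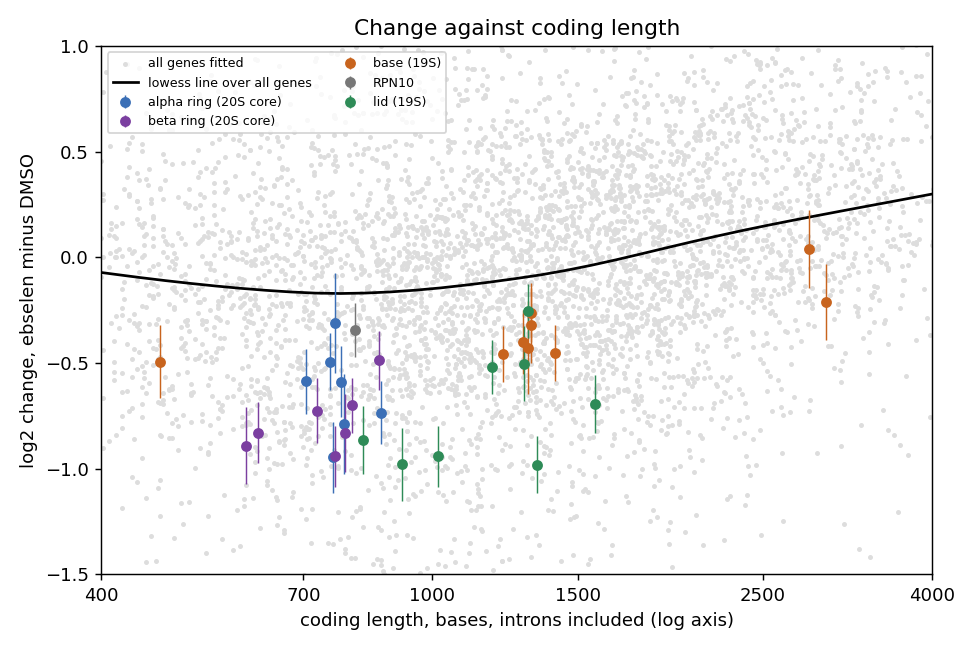
Log2 change, ebselen minus DMSO (y axis, bars are 95% intervals of limma), against coding length (x axis, log scale) for the 32 proteasome genes in colour, for all genes in grey within the plotted range, and a lowess line over all genes. RPN1 and RPN2, the 2 longest members, lie nearest to 0, and all 32 members lie below the line.

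The proteasome genes lie scattered over the genome, and in 2 cases a single coding gene separates a pair of members. PRE4 (-0.70) and RPN12 (-0.86) flank RET2, a subunit gene of the COPI vesicle coat, which rose (0.28 ± 0.054, limma adjusted p = 0.00652). RPT4 (-0.32) and RPN8 (-0.94) flank GCD1, a subunit gene of translation initiation factor eIF2B, which rose by 0.18 ± 0.050 (limma adjusted p = 0.0254). The genes between the members thus moved the opposite way relative to other genes, while the shift of 0.46 that hybridization control scaling makes would place both below 0. The sources name no genome build for the array, and no coordinates are given.

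Genes that control the proteasome genes moved in both directions: of 8, 3 fell and 2 rose, which is near the shares over all genes (38.8% lower and 33% higher). RPN4, the activator of the proteasome genes, gave 0.47 and 0.35 in DMSO and -0.35 and -0.38 in ebselen, with the groups apart. It fell 1.71-fold (-0.78 ± 0.062 SE, n = 2, limma adjusted p = 0.000278), a change between the medians of core and beta ring. RPN4 is itself a target of Yap1, Pdr1, Pdr3 and Hsf1 in yeast. YAP1, the oxidative stress activator, gave 0.48 and 0.49 in DMSO and -0.48 and -0.55 in ebselen, and changed by -1.002 ± 0.054 (limma adjusted p = 8.74e-05). The drug resistance factor PDR3 rose slightly (0.16 ± 0.055, limma adjusted p = 0.0435), and its call was lost without any of the 4 arrays (limma adjusted p 0.0884 to 0.254). With scaling on the hybridization controls PDR3 was at -0.30 instead, a call as lower that rests on the size of the change alone. PDR1 changed by -0.04 ± 0.050 and HSF1, the heat shock factor, by -0.15 ± 0.061, and neither passed. With the coding length trend removed PDR1 and HSF1 were called lower (-0.27, limma adjusted p = 0.00540, and -0.30, limma adjusted p = 0.00791). HSF1 was also called lower when arrays were centred on S. pombe values (-0.22, limma adjusted p = 0.0226).

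Rpn4 protein is marked for degradation by the ubiquitin ligase Ubr2 with its partner Mub1 and the conjugating enzyme Rad6. Their genes had different values. UBR2 gave -0.22 and -0.33 in DMSO and 0.23 and 0.22 in ebselen and rose by 0.50 ± 0.060 (limma adjusted p = 0.00102). It is a long gene (5619 bases), and its change was 0.10 with the coding length trend removed and 0.04 with scaling on the hybridization controls, neither past the test. RAD6 gave 0.52 and 0.48 in DMSO and -0.48 and -0.51 in ebselen, a change of -0.998 ± 0.052. MUB1 changed by -0.01 ± 0.086 and did not pass.

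Assembly factors of the proteasome had members in both directions. Of 8 genes for chaperones, activators and partners of the 20S core, 4 fell and 2 rose, with a median change of -0.14, again near the shares of 38.8% and 33% over all genes. CIC1, which binds the core and also acts in ribosome assembly, changed by -0.31 ± 0.052. PBA1, a chaperone of the alpha ring, changed by -0.25 ± 0.053. UMP1, which guides beta ring maturation and is degraded by the finished core, changed by -0.23 ± 0.054, and BLM10, an activator that caps the core, by -0.23 ± 0.052. UMP1, PBA1 and BLM10 each lost the call without at least 1 DMSO array (limma adjusted p from 0.0520 to 0.0835 there). With the coding length trend removed UMP1 (-0.13) and PBA1 (-0.09) did not pass, while BLM10, a long gene of 6432 bases, was at -0.68.

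POC4 rose. Its values were -0.24 and -0.26 in DMSO and 0.34 and 0.24 in ebselen, a change of 0.54 ± 0.059 (limma adjusted p = 0.000790), but 0.07 and no call with scaling on the hybridization controls. IRC25, its partner in an alpha ring chaperone dimer, changed by -0.03 ± 0.065 and did not pass, as did ADD66, the partner of Pba1 (-0.06 ± 0.067). FUB1, which encodes a proteasome-binding protein, rose by 0.19 ± 0.051 (limma adjusted p = 0.0190), and this call was lost without DMSO replicate 1 (0.0819), without DMSO replicate 2 (0.121) and without ebselen replicate 1 (0.0563).

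Of the 4 chaperones that assemble the ATPase ring 2 fell and 1 rose, beside 38.8% lower and 33% higher over all genes. NAS2 gave 0.47 and 0.36 in DMSO and -0.36 and -0.37 in ebselen, a change of -0.78 ± 0.062 (limma adjusted p = 0.000275). NAS6 changed by -0.30 ± 0.073 and fell. RPN14 rose instead, with -0.18 and -0.19 in DMSO, 0.20 and 0.18 in ebselen and a change of 0.38 ± 0.050 (limma adjusted p = 0.00152), but -0.09 and no call with scaling on the hybridization controls. HSM3 missed the test with 0.18 ± 0.083 (limma adjusted p = 0.102), and was at 0.27 without ebselen replicate 2. It was called higher with quantile normalization (limma adjusted p = 0.0443) and with the coding length trend removed (limma adjusted p = 0.0442). With scaling on the hybridization controls HSM3 was at -0.28, a call as lower that rests on the size of the change alone. The call of NAS6 was lost without DMSO replicate 1 (limma adjusted p = 0.0521) and with the coding length trend removed (-0.14).

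All 6 genes for other proteins bound to the 26S particle fell, against 38.8% of all genes. Their median change was -0.38, with a range from -0.57 to -0.28. UBP6, a ubiquitin protease on the base, gave 0.26 and 0.34 in DMSO and -0.29 and -0.26 in ebselen, a change of -0.57 ± 0.057. ECM29, which tethers core and cap, changed by -0.47 ± 0.075, and by -0.88 with the coding length trend removed (5607 bases). SEM1, a small lid subunit outside the 32 genes, changed by -0.42 ± 0.073. The others were SPG5 (-0.34), HUL5, a ubiquitin chain elongating ligase (-0.30), and STS1, needed for the nuclear location of proteasomes (-0.28). The call was lost for STS1 with the coding length trend removed (-0.13) and without DMSO replicate 2 (limma adjusted p = 0.0828) and for HUL5 without DMSO replicate 1 (0.0527). In the methods' t-test UBP6 alone of the 6 passed, and the others had adjusted p values after Benjamini-Hochberg of 0.0533 to 0.0978.

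Among 8 genes that bring ubiquitinated proteins to the proteasome 6 fell and 0 rose, against 38.8% and 33% of all genes. Their median change was -0.29. DSK2, a shuttle factor, gave 0.52 and 0.62 in DMSO and -0.90 and -0.52 in ebselen. It fell 2.42-fold (-1.28 ± 0.13 SE, n = 2, limma adjusted p = 0.000640), a larger change than any subunit, with a wide spread between its ebselen arrays (SD 0.27). The shuttle DDI1 changed by -0.61 ± 0.063, while RAD23 (-0.21 ± 0.083) did not pass. The value of RAD23 rested on single arrays: without ebselen replicate 1 it was called lower (-0.31, limma adjusted p = 0.0118), and without ebselen replicate 2 it was -0.10. Of the Cdc48 segregase and its cofactors, UFD1 changed by -0.81 ± 0.063, SHP1 by -0.35 ± 0.051, NPL4 by -0.24 ± 0.050 and CDC48 itself by -0.24 ± 0.058. NPL4 and CDC48 lost the call without either DMSO array (limma adjusted p 0.0507 to 0.0902). UFD2 did not pass (-0.04 ± 0.066), but was called lower with the coding length trend removed (-0.24, limma adjusted p = 0.0233).

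**Figure D4:**
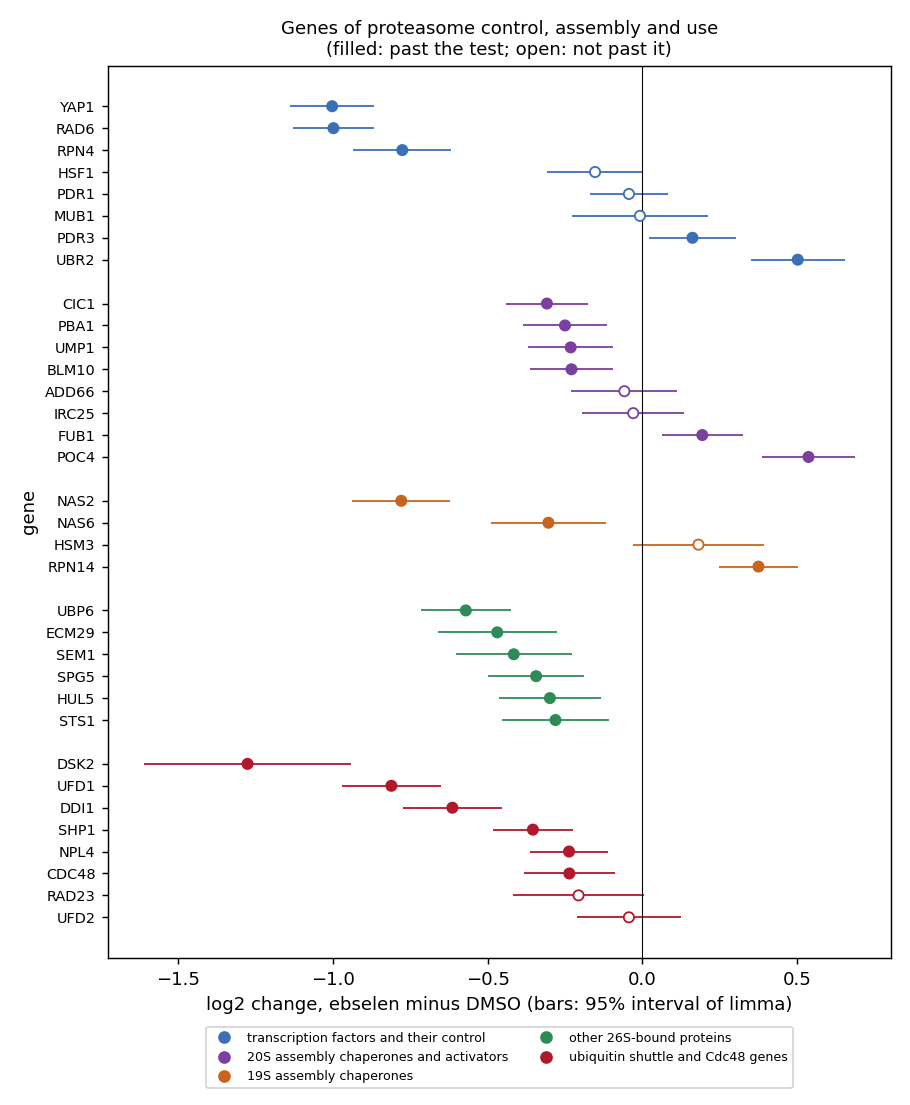
Log2 change, ebselen minus DMSO (x axis, bars are 95% intervals of limma), for 34 genes of proteasome control, assembly and use in 5 lists, with filled points for genes past the test. Of the 34 genes 21 fell, among them RPN4, YAP1, RAD6 and DSK2, and 5 rose, among them POC4, UBR2 and RPN14.

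Over the 34 related genes together, 21 fell and 5 rose with a median change of -0.24, beside 31 and 0 of 32 with a median of -0.55 for the subunits. These counts can be read against 38.8% of all genes called lower and 33% called higher.

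The S. pombe probe sets that carry the same gene names gave a background for the subunit probe sets. There were 22 of them, with a median change of -0.01 and a range from -0.44 to 0.46. In a limma fit with all probe sets 1 of the 22, rpn10, was called lower (-0.44, adjusted p = 0.00777) and 0 were called higher. Over all 1746 S. pombe probe sets 1.09% were called lower and 8.48% higher, so that this background had more rises than falls. The ebselen arrays of rpn10 lay below its DMSO arrays (-0.26 and -0.21 against 0.21 and 0.22). In that fit 29 of the 32 S. cerevisiae members were called lower, against 32.4% of all S. cerevisiae genes. Among the 22 named probe sets both ebselen arrays were below both DMSO arrays for 7, above for 5 and overlapping for the rest. The same counts were not made over all S. pombe probe sets, so these are a description only.

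The fall of the subunit genes was next followed across settings. Of the 31 genes called lower, 25 kept the call in all 15 alternatives, and the 6 that lost it in at least 1 were PRE6, RPN1, RPN6, RPT2, RPT4 and RPT5. No matching count over all genes called lower is given, and some alternatives hardly alter the members' values, so keeping the call there says little. The difference between the core median and that of base and lid (-0.28) cannot move in settings that shift all genes of an array alike or that leave the members' values as they are. In those that could move it, it was -0.32 to -0.25 with single arrays left out, -0.26 with quantile normalization and -0.18 with the coding length trend removed.

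**Figure D5:**
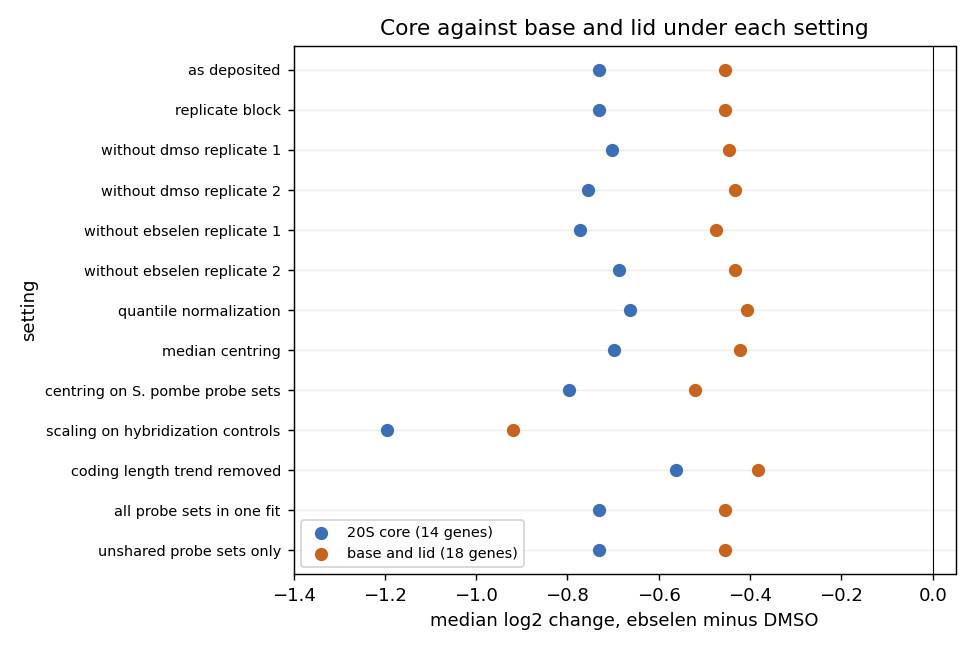
Median log2 change, ebselen minus DMSO (x axis), of the 14 core genes and the 18 base and lid genes under each setting (y axis). The core lies left of base and lid in each row, by the same distance in settings that shift all genes alike, from -1.20 and -0.92 with hybridization control scaling to -0.56 and -0.38 with the coding length trend removed.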

How the data were processed

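RNA of 4 cultures was hybridized to Affymetrix Yeast Genome 2.0 arrays after 3′ IVT labelling, per the labels' protocols. RMA was the authors' normalization according to the submitters' processing notes, and the design text names GeneSpring 7.2 and a t-test adjusted by Benjamini-Hochberg. The deposited values were taken as log2, as RMA gives; no source used here states the base, and every fold rests on it. Row medians are 0 (largest 5e-07).

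Of 10928 probe sets, 5498 matched 5449 genes of RefSeq assembly R64 by gene number; 47 genes with several probe sets were averaged. Matching by gene number keeps S. pombe genes of the same name out. limma 3.58.1 (R 4.3.3; lmFit, eBayes) was fitted to all 5449 genes, group as the only term, two-sided. Residual degrees of freedom were 2, prior ones 3.13. The script was tested on simulated data. Same-numbered arrays did not deviate together (r = -0.08 over genes).

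All 32 members and all 34 related genes are named. Members and lists were chosen with earlier results of these data known. A planned count of promoter motifs was not run. The number of arrays limits precision. Alternatives were a replicate block, each array left out, 5 rescalings, all or only unshared probe sets, the methods' t-test, robust eBayes and a threshold of 0.01.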

Additional observations from a re-analysis of the deposited data

How the results depend on the processing

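Over 15 alternatives the members called lower numbered 27 to 32 and those called higher 0. Leaving out single arrays gave 27 to 30 lower and a core minus base and lid difference of -0.32 to -0.25. With the replicate number as a block 30 members were lower, PRE6 lost its call and PDR3 too (0.0789); over all genes 1971 fell and 1670 rose, against 2113 and 1796. Because the arrays share only a number, this block says nothing on pairing. Core and base and lid medians were -0.66 and -0.41 with quantile normalization, -0.80 and -0.52 when centred on the S. pombe background, -1.20 and -0.92 when scaled by hybridization controls, -0.56 and -0.38 (difference -0.18) with the length trend removed, and -0.42 for base and lid with median centring. Hybridization control scaling gave 3659 lower and 492 higher genes (11.9% rises, against 45.9%), by construction of its shift. The limma adjusted p followed the size of the change alone there, so calls in that scaling do not weigh a gene's replicate spread. Signs reversed as follows, mostly for values near 0 that passed no test; the cause was not tested. Without single arrays RPN2 ranged from -0.033 to 0.11, MUB1 from -0.12 to 0.10, IRC25 from -0.096 to 0.038, ADD66 from -0.12 to 0.0047 and UFD2 from -0.11 to 0.020. RPN2 was -0.028 with S. pombe centring, -0.43 with hybridization controls and -0.15 without the length trend. MUB1 and IRC25 were 0.032 and 0.0073 with quantile normalization and 0.025 and 0.0035 with median centring. Without the length trend IRC25 was 0.10, ADD66 0.11 and PDR3 -0.037. With hybridization controls PDR3 was -0.30 and HSM3 -0.28, both called lower. FUB1 was -0.27 and RPN14 -0.089 there, and neither was called. In that scaling UBR2 (0.04) and POC4 (0.07) no longer passed, and PDR1, HSF1, ADD66, IRC25, RAD23 and UFD2 were called lower (-0.67 to -0.49), as was MUB1 (-0.47); RAD23 was also called with S. pombe centring (-0.27). With 2 arrays per group and centred values, small changes and any filter on dim probe sets are beyond these data.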
